A study of Mus musculus with 9 samples.

Results

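The 10 genes described here encode proteins that carry dietary fat from the intestinal lumen into the chylomicron, the lipoprotein in which enterocytes export it: Cd36, Scarb1, Fabp1, Fabp2, Dgat1, Dgat2, Mttp, Apob, Apoa1 and Apoa4. They were chosen by name, with earlier results of these data known. They are the rows of the count table whose mouse Ensembl identifier carries one of these symbols, and all 10 were found among 29288 genes. All 10 passed the filter on low counts, as did 18933 genes in all. Gene expression was measured by bulk RNA sequencing in intestinal epithelial cells that were sorted as live EpCAM+, CD45-, CD31- and Ter119- cells from crypt preparations of the proximal small intestine. The mice were adult female wild-type C57BL/6J animals. The 9 mice formed 3 groups of 3: controls injected i.p. with PBS and sampled at 18 h (control), mice injected with 2 μg of α-galactosylceramide and sampled at 18 h (18h-αGal), and mice given the same dose and sampled at 72 h (72h-αGal). α-Galactosylceramide is a lipid antigen that activates natural killer T (NKT) cells. Since controls were taken at 18 h alone, the effect of the lipid at 72 h and that of the later sampling cannot be told apart.

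In the small intestine, luminal lipases split dietary triacylglycerol into fatty acids and monoacylglycerol, which absorptive enterocytes take up, bind to cytosolic carriers and activate with coenzyme A. The acyl groups are re-esterified at the endoplasmic reticulum, packed by a transfer protein onto apolipoprotein B, coated with further apolipoproteins and secreted into lymph. Enterocytes of the villus do most of this work, whereas crypts hold mainly stem, progenitor and secretory cells. In such bulk libraries, fewer cells of a type and less RNA per cell cannot be told apart.

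Total counts ranged from 8887861 to 32722293 per library, and the 10 genes together took 0.265 to 0.911% of the counts of a library. Control replicate 3 was the shallowest library and held the largest enterocyte signal. The summed normalised count of 15 markers of mature enterocytes was 137135 to 359856 in controls, 187480 to 304362 in 18h-αGal and 90686 to 179650 in 72h-αGal mice. The tissue label was checked with 4 markers of the proximal intestine, which summed to 14435 to 21887 normalised counts, and 2 ileal genes, which summed to at most 27.8. Of the other cell types, endothelial, macrophage, lymphocyte, adipocyte and pancreatic lists summed to at most 764 normalised counts in any library.

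Relative levels were compared per kilobase of merged exons. In controls Apoa1, Mttp, Fabp2, Apob, Fabp1 and Dgat1 had the highest levels, with means from 5783 normalised counts per kb for Apoa1 to 2518 for Dgat1, and the library ranges of each neighbouring pair in this order overlapped. Apoa4 followed at 1018 ± 561 (SD, n = 3), then Dgat2 at 327 ± 86.8, Scarb1 at 37.2 ± 6.66 and Cd36 at 19.6 ± 7.93, and none of these neighbours overlapped in controls. These 4 genes kept that order at 18 h and 72 h, where Apoa4 and Dgat2 overlapped and Scarb1 and Cd36 did not. Cd36 was therefore the gene with the lowest level per kb, at percentile 31.9 of 18694 genes in controls, 10.6 in 18h-αGal and 21.7 in 72h-αGal mice. Merged exons count every annotated exon, and Cd36 has 12624 such bases, so genes with many alternative exons read low on this scale.

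Cd36, a surface receptor that binds long-chain fatty acids, was the gene that changed most among the 10. Its normalised counts were 218, 165 and 359 in controls, 30.3, 32.3 and 69.0 in 18h-αGal mice, and 133, 209 and 73.6 in 72h-αGal mice. All 18h-αGal libraries lay below all controls, and the 72h-αGal libraries lay above the 18h-αGal libraries by a narrow margin. These values rest on 151 to 372 reads per control library and 36 to 50 reads per 18h-αGal library. Cd36 fell by 2.51 ± 0.45 (SE) on the log2 scale at 18 h, with an adjusted p of 0.00507 by edgeR's quasi-likelihood test. From 18 h to 72 h it rose by 1.69 ± 0.44, with an adjusted p of 0.0253. The latter call was lost when any of 4 libraries was left out (18h-αGal replicates 1 and 2, 72h-αGal replicates 1 and 2), with a largest adjusted p of 0.122. At 72 h against controls the log2 fold change was -0.81 ± 0.42, with an adjusted p of 0.860. At 18 h, 1 of the 10 genes was thus called, and it was lower, where 2.69% of all genes tested were called lower and 3.27% higher. Cd36 was also the only one of the 10 whose 18h-αGal and control libraries did not overlap, and this held for 23.8% of all genes.

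**Figure D1:**
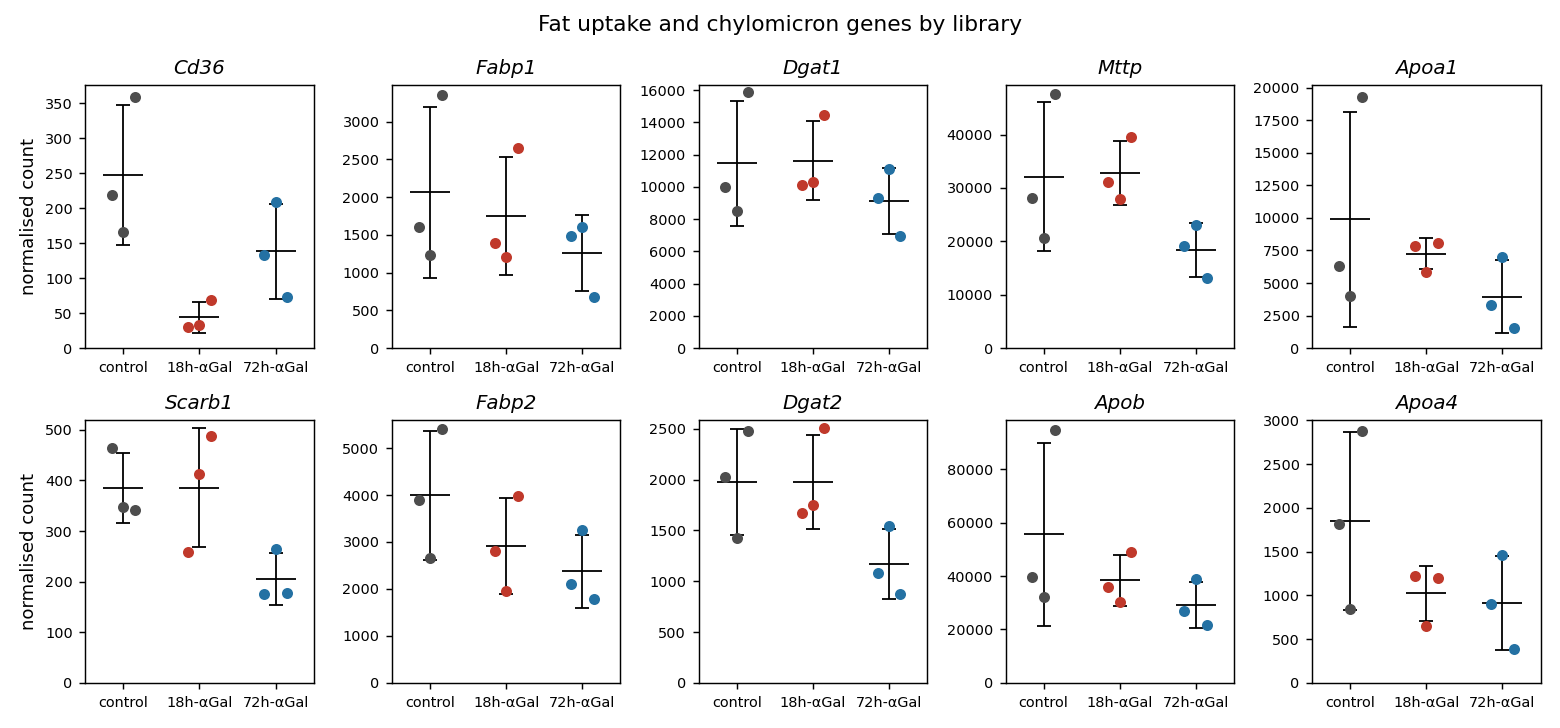
Normalised counts of the 10 genes (vertical axes, each from 0) in control, 18h-αGal and 72h-αGal mice, with 1 point per library in the order of replicates 1 to 3, and bars for the mean ± SD of 3 mice. Cd36 is the only gene whose 18h-αGal points all lie below the controls, and control replicate 3 is the highest control for 9 of the 10 genes.

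Cd36 is also made by endothelial cells, macrophages and adipocytes, so their markers are given beside it. The 5 endothelial markers summed to 60.5 to 66.6 normalised counts in controls, 14.4 to 25.2 in 18h-αGal and 30.1 to 36.3 in 72h-αGal mice, so their sum moved in the same order as Cd36. Most of this sum was Pecam1, at 38.9 on average in controls and 15.3 in 18h-αGal mice, and neither of the 2 endothelial markers that passed the filter was called. Kdr was at 0 in 8 of 9 libraries, Emcn in 7 and Cdh5 in 6. The 4 macrophage markers found summed to 266 to 517 in controls, 321 to 591 in 18h-αGal and 533 to 764 in 72h-αGal mice. Nearly all of this sum was Cd68, and Adgre1 and C1qa were each at 0 in 7 of 9 libraries. The 3 adipocyte markers found summed to at most 34.6 in any library. The part of endothelial RNA in the fall of Cd36 was not tested.

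Markers of other epithelial cells also differed between the groups. Of 5 villus tip markers, Slc28a2, Egfr and Neat1 fell at 18 h and rose from 18 h to 72 h. Ada and Nt5e were not called and did not follow this course. Their log2 fold changes were 0.004 and 0.12 at 18 h, and 0.19 and -1.09 from 18 h to 72 h. For Slc28a2, a nucleoside transporter, the log2 fold changes were -1.55 and 1.38. The 5 stem cell markers summed to 31600 to 58557 in controls and 8149 to 29517 in 18h-αGal mice, with no overlap. Most of this sum was Olfm4, and Lgr5, Ascl2 and Smoc2 each overlapped between these groups. None of the 5 was called by edgeR at 18 h (1 with an unadjusted p under 0.05). The 5 enteroendocrine markers summed to 5539 to 6280 in controls, 7525 to 10748 in 18h-αGal and 2435 to 2936 in 72h-αGal mice, with no overlap. Chga and Chgb, granins of enteroendocrine cells, were called higher at 18 h, and Chga, Chgb, Neurod1 and Tph1 were called lower at 72 h against controls. Of 5 tuft cell markers, Avil was called higher at 18 h. Among the 15 enterocyte markers, Mep1a, a brush border metalloprotease subunit, was the only one called at 18 h (log2 fold change -2.53 ± 0.22, adjusted p 4.08e-05 by edgeR), and it rose again by 72 h (log2 fold change 1.88 ± 0.22, adjusted p 0.000151 by edgeR).

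Cd36 lies on chromosome 5 at 17781690 to 17888959 on the minus strand of GRCm38.p6, the build whose gene order the count table follows. To show DNA at a start site of the gene that moved, the bases 250 to 191 before the start that RefSeq's promoter table gives for Cd36 are printed from chr5:17836087-17836146. This start lies inside the annotated span of the gene, so the bases are not upstream of its outermost 5′ end, and which start the cells used was not tested. They are shown together with bases 250 to 61 before the start of Fabp1 from chr6:71199629-71199818 on the plus strand, since these were the only 2 of the 7 genes with a RefSeq promoter entry (Cd36, Fabp1, Fabp2, Mttp, Apob, Apoa1 and Apoa4) that held any motif searched. Capitals mark AGGTCA, a half-site of nuclear receptors, and TTTATG, a site of caudal-type homeobox factors, each on either strand. In Cd36 the 2 motifs overlap.
Cd36: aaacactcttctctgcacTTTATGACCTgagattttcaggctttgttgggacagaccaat
Fabp1: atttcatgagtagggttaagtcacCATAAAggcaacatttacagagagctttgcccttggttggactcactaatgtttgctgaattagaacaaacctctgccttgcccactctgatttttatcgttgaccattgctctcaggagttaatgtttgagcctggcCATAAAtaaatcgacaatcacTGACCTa
In windows from 250 bases before to 50 after the start, 16.3% of 32851 RefSeq promoters held AGGTCA and 11.9% held TTTATG on either strand. CAAAGTCCA (0.475% of promoters, a site of hepatocyte nuclear factor 4), AGATAA (11.2%, GATA factors), TTCNNNGAA (8.3%, the gamma-activated site) and the interferon-stimulated response element (3.44%) were in none of the 7 windows. These matches describe the letters in the windows and nothing more.

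Scarb1 (chr5:125277087-125341094, minus strand), the scavenger receptor that takes up cholesterol and other lipids from lipoproteins and micelles, followed another course. Its normalised counts were 465, 348 and 342 in controls, 258, 412 and 487 in 18h-αGal mice, and 175, 264 and 177 in 72h-αGal mice. The control and 18h-αGal ranges overlapped, whereas every 72h-αGal library lay below every control. The log2 fold change at 18 h was -0.00 ± 0.26, with a 95% interval from -0.51 to 0.51. From 18 h to 72 h Scarb1 fell by 0.89 ± 0.26, with an adjusted p of 0.0433 by edgeR, so 2 of the 10 genes were called in this comparison, 1 in each direction. Among all genes 4.18% were called higher and 6.04% lower. The call was close to the threshold: it was lost when any of 5 libraries was left out (control 1, 18h-αGal 2 and 3, 72h-αGal 1 and 3), with a largest adjusted p of 0.174. At 72 h against controls the log2 fold change was of the same size, -0.90 ± 0.26, with an adjusted p of 0.708 (unadjusted p 0.00397).

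Fabp1 (chr6:71199879-71205034, plus strand) and Fabp2 (chr3:122895072-122899506, plus strand) encode the liver-type and intestinal-type fatty acid-binding proteins, which carry fatty acids through the enterocyte cytosol. Fabp1 had 1608, 1236 and 3355 normalised counts in controls, 1394, 1203 and 2651 in 18h-αGal mice, and 1486, 1607 and 682 in 72h-αGal mice. Fabp2 had 3901, 2668 and 5413 in controls, 2806, 1951 and 3985 in 18h-αGal mice, and 2102, 3254 and 1778 in 72h-αGal mice. The ranges overlapped in every comparison, and neither gene was called in any. At 18 h the log2 fold changes were -0.23 ± 0.52 for Fabp1 and -0.45 ± 0.36 for Fabp2.

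Dgat1 (chr15:76502012-76512021, minus strand) and Dgat2 (chr7:99153663-99182713, minus strand) encode the acyltransferases of the last step of triacylglycerol synthesis. Dgat1 had 9988, 8525 and 15871 normalised counts in controls, 10124, 10303 and 14430 in 18h-αGal mice, and 9307, 11084 and 6978 in 72h-αGal mice. Dgat2 had 2023, 1429 and 2475 in controls, 1668, 1746 and 2504 in 18h-αGal mice, and 1084, 1544 and 871 in 72h-αGal mice. Neither gene was called in any comparison, and the 95% intervals at 18 h ran from -0.45 to 0.51 for Dgat1 and from -0.47 to 0.48 for Dgat2. Dgat2 missed the threshold from 18 h to 72 h, at a log2 fold change of -0.75 ± 0.24 with an adjusted p of 0.0791, although its 72h-αGal libraries all lay below the 18h-αGal libraries. It was called there in 4 of 19 alternatives, with a smallest adjusted p of 0.0191 by edgeR or DESeq2. These were DESeq2, only the 2 groups compared, and leaving out control replicate 2 or 72h-αGal replicate 2.

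Mttp (chr3:138089855-138143418, minus strand), the microsomal transfer protein that loads lipid onto apolipoprotein B, had 28146, 20573 and 47560 normalised counts in controls, 31089, 27965 and 39544 in 18h-αGal mice, and 19099, 22984 and 13085 in 72h-αGal mice. Apob (chr12:7977629-8016839, plus strand), the structural protein of the particle, had 39844, 32085 and 94908 in controls, 35924, 30471 and 48993 in 18h-αGal mice, and 27052, 38834 and 21780 in 72h-αGal mice. Control replicate 3 stood well above the other controls for both. At 18 h the log2 fold change was 0.04 ± 0.32 for Mttp and -0.52 ± 0.45 for Apob, and neither gene was called in any comparison. Without control replicate 3 the Apob value turned to 0.10. Mttp did not overlap between 72h-αGal and 18h-αGal mice, but at -0.83 ± 0.32 it had an adjusted p of 0.159. It was called there in 2 of 19 alternatives, with only these 2 groups in the fit and without control replicate 3 (smallest adjusted p 0.0162 by edgeR). Cd36, Dgat2 and Mttp were the 3 genes whose libraries did not overlap between 72h-αGal and 18h-αGal mice, against 32.8% of all genes.

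Apoa1 (chr9:46228630-46230469) and Apoa4 (chr9:46240844-46243458) lie near each other on the plus strand and encode exchangeable apolipoproteins on the particle surface. Apoa1 had the largest ratio of highest to lowest control of the 10 genes (4.78), with 6293, 4035 and 19304 normalised counts there, 7825, 5868 and 8063 in 18h-αGal mice, and 3340, 6982 and 1514 in 72h-αGal mice. Apoa4 had 1818, 845 and 2881 in controls, 1216, 655 and 1195 in 18h-αGal mice, and 900, 1459 and 385 in 72h-αGal mice. The groups overlapped in every comparison, and neither gene was called. The log2 fold changes at 18 h were -0.43 ± 0.74 for Apoa1 and -0.84 ± 0.61 for Apoa4, and the Apoa1 value was 0.49 without control replicate 3.

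**Figure D2:**
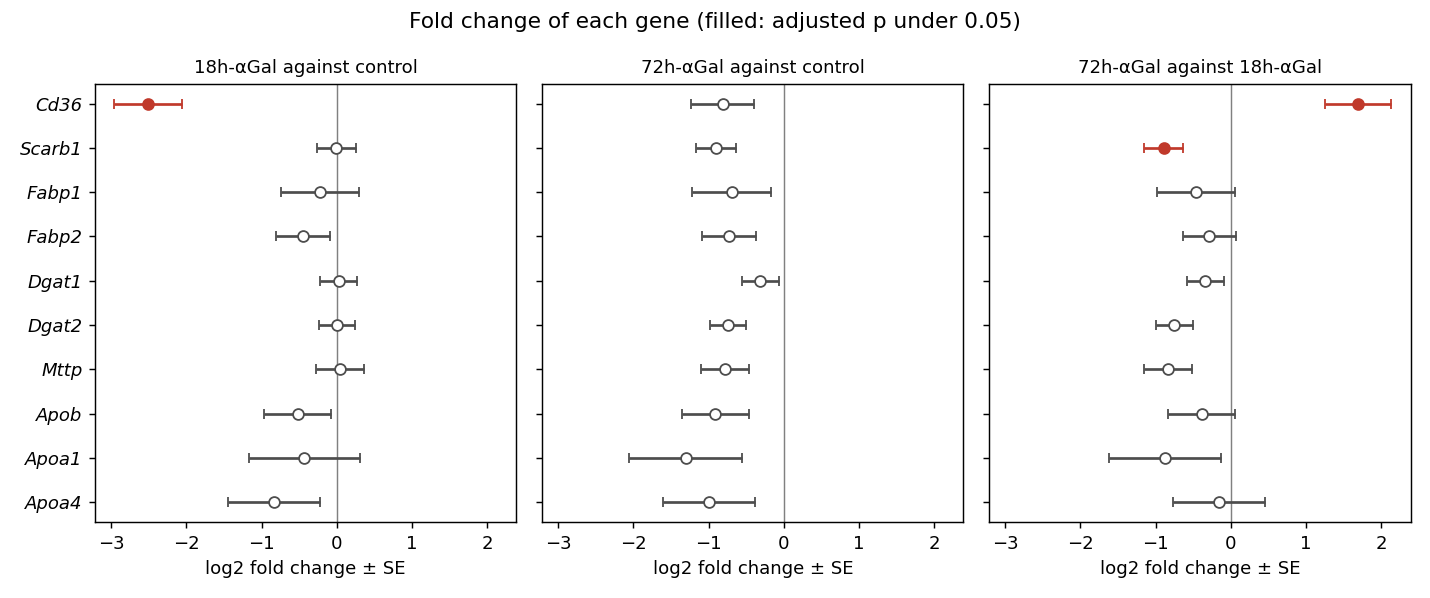
Log2 fold change ± SE of the 10 genes (horizontal axis) in each of the 3 comparisons, with filled red points where the adjusted p was under 0.05 by edgeR. Cd36 is called at 18 h (-2.51) and from 18 h to 72 h (1.69), Scarb1 from 18 h to 72 h (-0.89), and all 10 points lie left of 0 at 72 h against controls without a call.

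At 72 h against controls, all 10 genes had a negative log2 fold change, from -0.31 for Dgat1 to -1.30 for Apoa1, with a median of -0.80 against 0.002 over all genes tested. None of the 10 was called by edgeR, by DESeq2 or by limma, where edgeR called 5 genes, or 0.0264% of all tested, and 3 of the 10 (Scarb1, Dgat2 and Mttp) had an unadjusted p under 0.05. Scarb1 was the only one whose libraries did not overlap, against 12.7% of all genes. The 15 enterocyte markers also had negative log2 fold changes, with a median of -0.75, but edgeR called none of them and 2 had an unadjusted p under 0.05. Without control replicate 3 the 10 log2 fold changes were -0.01 to -0.97.

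The position of a library within its group was largely shared among the genes. Control replicate 3 was the highest control for 9 of the 10, 18h-αGal replicate 3 the highest of its group for 9, and 72h-αGal replicate 2 the highest of its group for all 10. Over the 9 libraries, the Pearson correlations of log2 normalised counts among the 8 genes other than Cd36 and Scarb1 ran from 0.77 to 0.961 over 28 pairs, whereas those of the 9 pairs with Cd36 ran from 0.05 to 0.593. With the summed enterocyte markers, r was 0.992 for Mttp, 0.955 for Dgat1 and 0.954 for Apoa1, 0.646 for Scarb1 and 0.164 for Cd36. These are descriptions, since all points come from the same 9 libraries and share their depth and cell composition.

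Each gene was therefore also set against the enterocyte markers of its own library, an alternative chosen after the values had been seen. The sum was unweighted, and Sis and Anpep were its largest parts, at 57590 and 69244 of 210378 in control replicate 1. At 18 h, 8 of the 15 markers had a higher estimate and 7 a lower one, among them Mep1a (-2.53) and Lct (-2.16). Per 1000 normalised counts of the 15 summed markers, Cd36 had 1.04, 1.2 and 0.998 in controls, 0.134, 0.172 and 0.227 in 18h-αGal mice, and 0.935, 1.16 and 0.811 in 72h-αGal mice. The controls and 72h-αGal mice overlapped on this scale and all 18h-αGal mice lay below both. Mttp had 134, 150 and 132 in controls, 138, 149 and 130 in 18h-αGal mice, and 134, 128 and 144 in 72h-αGal mice, with the 3 groups overlapping.

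Apob, Apoa4 and Fabp2 differed from Mttp on this scale. Apob had 189, 234 and 264 in controls, 159, 163 and 161 in 18h-αGal mice, and 190, 216 and 240 in 72h-αGal mice. Apoa4 had 8.64, 6.16 and 8.01 in controls, 5.38, 3.49 and 3.93 in 18h-αGal mice, and 6.32, 8.12 and 4.24 in 72h-αGal mice. Fabp2 had 18.5, 19.5 and 15 in controls, 12.4, 10.4 and 13.1 in 18h-αGal mice, and 14.8, 18.1 and 19.6 in 72h-αGal mice. For these 3 genes and Cd36, 4 of the 10, all 18h-αGal libraries lay below all controls on this scale, as they did for 6.12% of all genes tested.

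With the log2 marker sum as a covariate in the edgeR fit, 4 of the 10 genes were lower at 18 h, where 5.98% of all genes were called lower. The log2 fold changes were -2.63 ± 0.32 for Cd36 (adjusted p 1.05e-05 by edgeR), -0.86 ± 0.18 for Apoa4 (0.00388), -0.53 ± 0.12 for Fabp2 (0.00371) and -0.50 ± 0.11 for Apob (0.00416). Without control replicate 3, Cd36, Apoa4 and Fabp2 were still called and Apob was not (log2 fold change -0.28, adjusted p 0.104 by edgeR). The value for Mttp was 0.03 ± 0.07. From 18 h to 72 h the same fit called Cd36 (2.55 ± 0.38, adjusted p 0.000215 by edgeR) and Apoa4 (0.86 ± 0.22, adjusted p 0.0215 by edgeR) higher, where 3.76% of all genes were called higher, and it no longer called Scarb1, with an adjusted p of 0.162. At 72 h against controls it called none of the 10 by edgeR, with 2 at an unadjusted p under 0.05. The covariate is an index of enterocyte RNA and not a cell count.

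**Figure D3:**
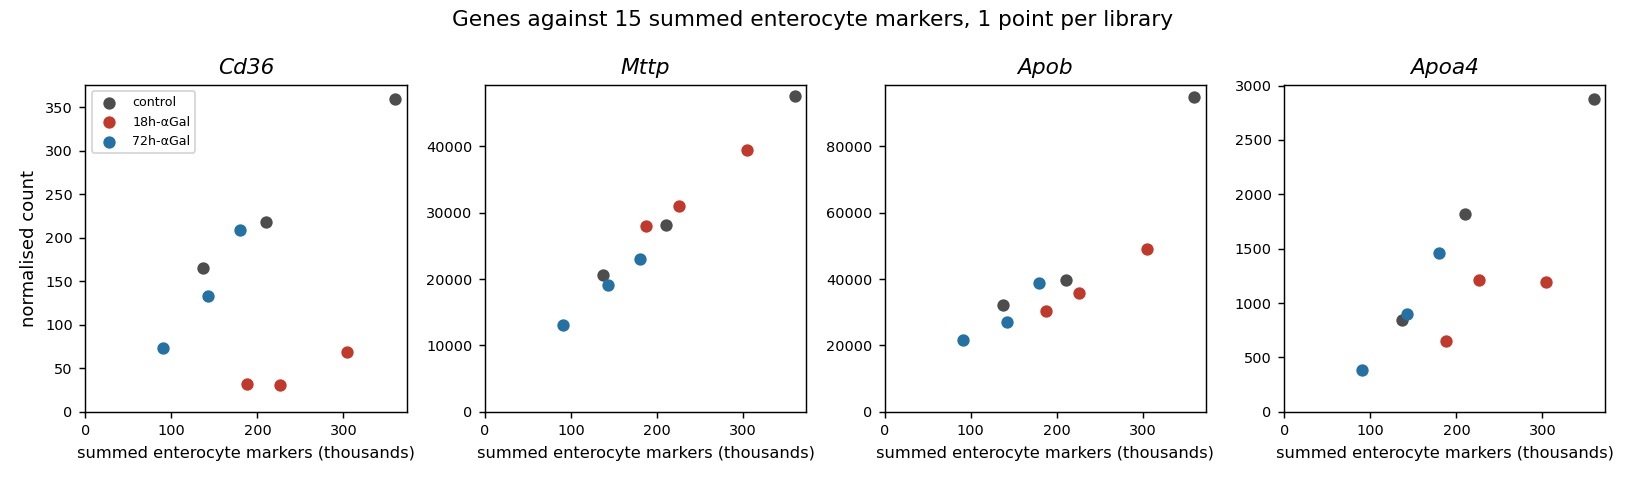
Normalised counts of Cd36, Mttp, Apob and Apoa4 (vertical axes) against the summed normalised counts of 15 enterocyte markers (horizontal axes, in units of 1000), with 1 point per library, coloured by group. Mttp lies close to 1 line in all 9 libraries (r = 0.992 between log2 values, whereas the axes are linear). The 3 18h-αGal points of Cd36 (30.3 to 69.0) lie below those of controls (165 to 359). They lie below those of 72h-αGal mice (73.6 to 209) by a narrow margin.

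Pairs of genes with related roles were compared within each library, which removes the scaling. The log2 ratio of Cd36 to Scarb1 was -0.70 ± 0.67 (SD, n = 3) in controls, -3.19 ± 0.44 in 18h-αGal and -0.67 ± 0.52 in 72h-αGal mice, so the 18h-αGal ratio lay apart from both others. The log2 ratio of Mttp to Apob was -0.71 ± 0.26 in controls, -0.21 ± 0.09 in 18h-αGal and -0.67 ± 0.14 in 72h-αGal mice, without overlap between 18h-αGal and either other group. That of Dgat1 to Dgat2 was 2.52 ± 0.20, 2.56 ± 0.04 and 2.98 ± 0.13, with the 72h-αGal mice above both others. Apoa4 to Apoa1 stood at -2.26 ± 0.48, -2.87 ± 0.26 and -2.04 ± 0.19, and separated the 2 αGal groups only. Fabp1 to Fabp2 overlapped in every comparison, at -1.03 ± 0.30, -0.77 ± 0.22 and -0.97 ± 0.44. An exact two-sided permutation test of 3 against 3 libraries cannot go below 0.1, and each of the 7 comparisons without overlap reached that value, with an adjusted p of 0.214 over the 15 comparisons. How often the ratios of other gene pairs separate the groups was not tested.

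**Figure D4:**
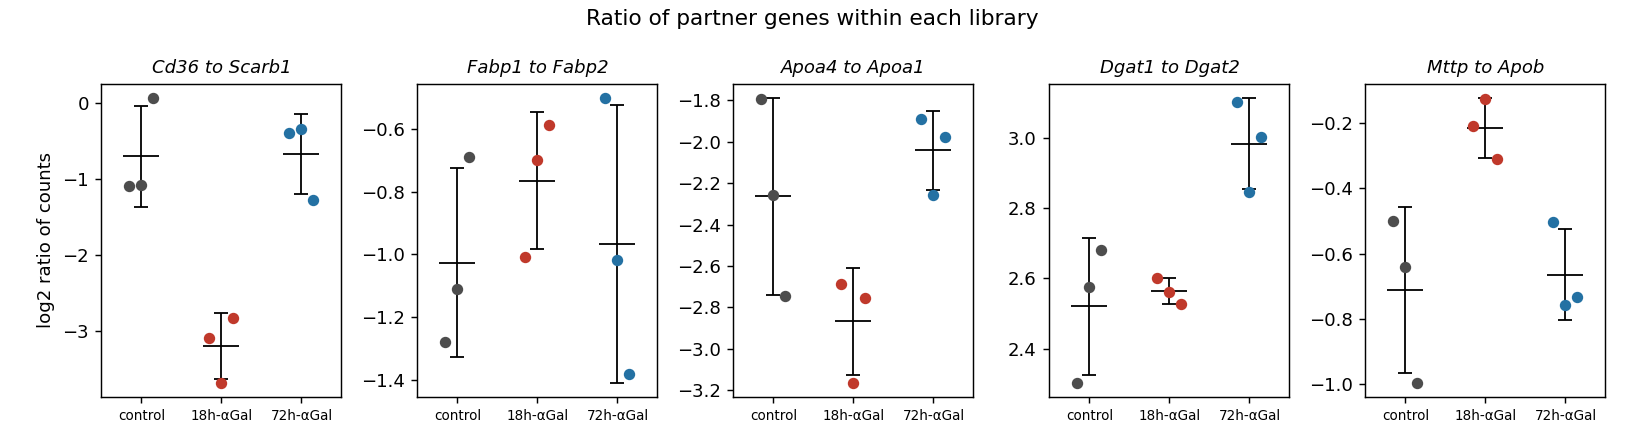
Log2 ratio of the raw counts of 5 gene pairs within each library (vertical axes, not starting at 0), with 1 point per library and bars for the mean ± SD of 3 mice. Cd36 to Scarb1 is low in 18h-αGal mice (-3.19) against -0.70 in controls and -0.67 at 72 h, and Mttp to Apob is high in 18h-αGal mice (-0.21).

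The other genes of the pathway were described through 7 lists that held 80 genes, of which 78 were in the count table and 75 passed the filter. At 18 h, 2 of the 75 were called higher and 4 lower, where the shares over all genes were 3.27% and 2.69%, and the median log2 fold change was 0.02 against -0.03 over all genes. Of these 6, 4 belonged to the 8 genes of fatty acid uptake and activation. Slc27a2, a very long-chain acyl-CoA synthetase and fatty acid transporter, had 3530, 3409 and 4365 normalised counts in controls and 1982, 1826 and 2508 in 18h-αGal mice, and fell by 0.83 ± 0.13 on the log2 scale (adjusted p 0.00212 by edgeR). Acsl1, a long-chain acyl-CoA synthetase, had 2108, 1821 and 2054 in controls and 1243, 881 and 1297 in 18h-αGal mice, and fell by 0.80 ± 0.16 (adjusted p 0.00935 by edgeR). Both lay below all controls in every 18h-αGal library. Slc27a2 was called in all 19 alternatives, while the call for Acsl1 was lost without control replicate 1 or 18h-αGal replicate 2 (largest adjusted p 0.0516 by edgeR).

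Acsl4, the synthetase that prefers arachidonate, went the other way. It had 147, 150 and 176 normalised counts in controls and 346, 341 and 295 in 18h-αGal mice, and rose by 1.07 ± 0.22 (adjusted p 0.0116 by edgeR). Got2, the mitochondrial aspartate aminotransferase that has also been described as a fatty acid-binding protein of the plasma membrane, rose by 0.57 ± 0.13 (adjusted p 0.0212 by edgeR). Acsl4 was not called without control replicate 1 or 18h-αGal replicate 2 (largest adjusted p 0.0569 by edgeR), and Got2 without control replicates 1 or 2 or 18h-αGal replicates 1 or 2 (largest adjusted p 0.0973 by edgeR). All 4 genes turned back from 18 h to 72 h, Slc27a2 and Acsl1 with log2 fold changes of 0.74 and 0.73 and Acsl4 and Got2 of -0.80 and -0.56, and each was called.

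Among 15 transcriptional regulators, Mlxipl, a glucose-responsive activator of lipogenic genes, and Ppard, a fatty acid-activated nuclear receptor, fell at 18 h by 0.52 ± 0.14 (adjusted p 0.0341 by edgeR) and 0.43 ± 0.12 (adjusted p 0.0497 by edgeR). Mlxipl had 16828, 14666 and 15933 normalised counts in controls and 9299, 10194 and 13407 in 18h-αGal mice. The call for Ppard lay at the threshold and was lost in 12 of 19 alternatives (largest adjusted p 0.259), and that for Mlxipl in 8 (largest adjusted p 0.161). None of 14 genes of triacylglycerol re-synthesis, 11 of lipid droplets and lipolysis, 15 of chylomicron assembly and transport, 5 of other apolipoproteins and 7 of sterol uptake and efflux was called by edgeR at 18 h, with list medians from -0.05 to 0.09, and 7 of these 52 genes had an unadjusted p under 0.05.

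From 18 h to 72 h, 3 of the 75 were called higher and 9 lower, where the shares over all genes were 4.18% and 6.04%, with a median log2 fold change of -0.23 against 0.05 over all genes. In re-synthesis, Gpat3, a glycerol-3-phosphate acyltransferase, fell by 1.10 ± 0.23 (adjusted p 0.00848 by edgeR) from 666, 793 and 749 to 367, 369 and 293 normalised counts. Agpat1, which adds the second acyl chain, fell by 0.58 ± 0.13, and Lpin1, a phosphatidate phosphatase and transcriptional coactivator, rose by 0.79 ± 0.19. On lipid droplets, Plin3, a coat protein, and Lipe, hormone-sensitive lipase, fell by 0.73 ± 0.21 and 0.74 ± 0.20. In assembly and transport, Surf4, a cargo receptor of the endoplasmic reticulum, fell by 0.68 ± 0.15, and Rbm47, an RNA-binding cofactor of apolipoprotein B RNA editing, by 0.51 ± 0.14. Hnf4g, a nuclear receptor of enterocytes, fell by 0.68 ± 0.19. The summed enterocyte markers were also lower in all 72h-αGal libraries than in all 18h-αGal libraries. With their sum as a covariate, Gpat3, Got2 and Surf4 were still called lower (Surf4 not when control replicate 3 was also left out, with an adjusted p of 0.0914 by edgeR), and Acsl4, Agpat1, Plin3, Lipe, Rbm47 and Hnf4g were not. Of these 9 genes, Gpat3 was called in all 19 alternatives, and the calls of the other 8 were lost without 72h-αGal replicate 3. Over all libraries left out in turn, their largest adjusted p lay between 0.0622 for Surf4 and 0.193 for Plin3. Lpin1 was not called without 18h-αGal replicates 1 or 2 or 72h-αGal replicate 2, with a largest adjusted p of 0.101. At 72 h against controls neither edgeR nor DESeq2 called any of the 75, with 9 at an unadjusted p under 0.05 in edgeR, and their median was -0.25.

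**Figure D5:**
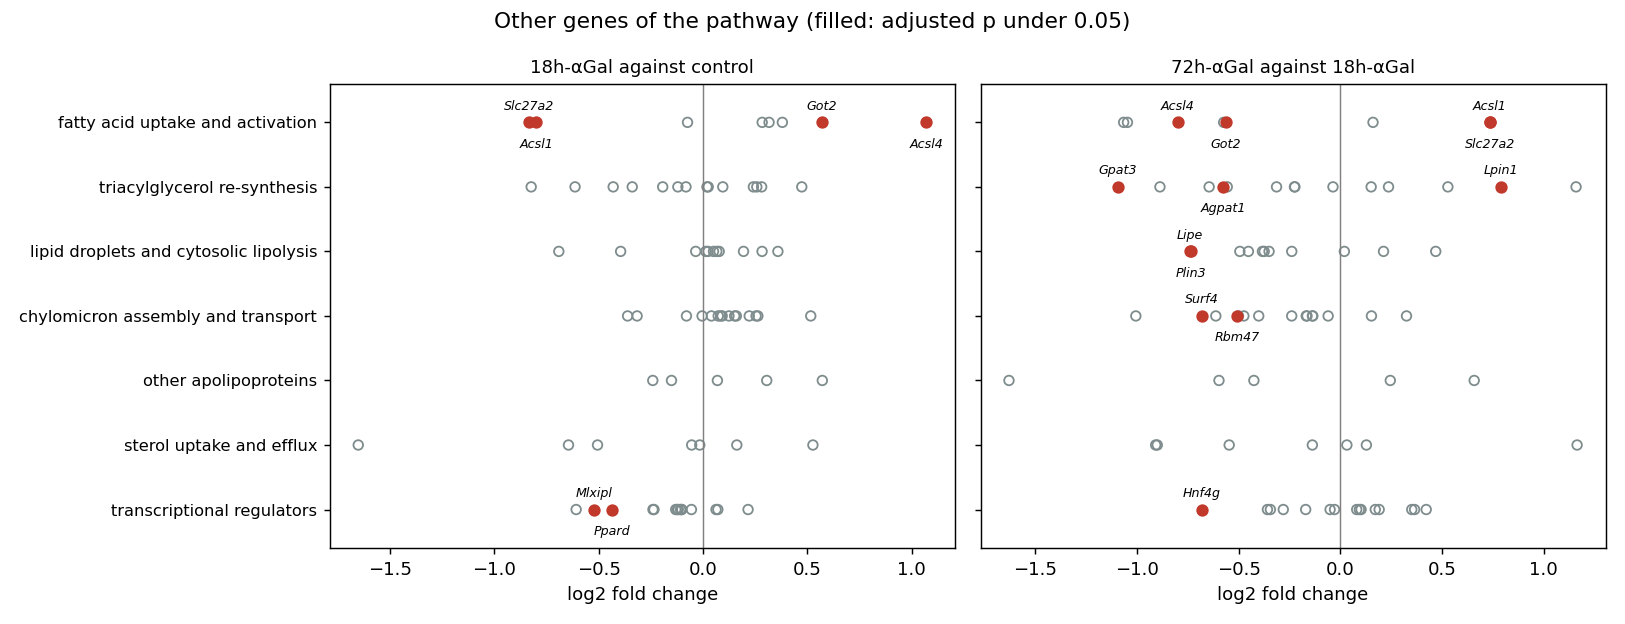
Log2 fold change (horizontal axis) of the 75 other pathway genes tested, by list, at 18 h against controls (left) and from 18 h to 72 h (right), with filled red and named points where the adjusted p was under 0.05 by edgeR. At 18 h, 4 of the 6 called genes belong to fatty acid uptake and activation (Slc27a2 and Acsl1 lower, Got2 and Acsl4 higher), and the lists of re-synthesis and assembly hold called genes from 18 h to 72 h alone.

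The genes whose pattern over the 9 libraries was most like that of Cd36, among 10894 other genes with a mean of at least 100 normalised counts, were Cyp2c66 (r = 0.988), Gsta4 (0.980), Gm47171 (0.972), Pigl (0.970) and Cyp4v3 (0.969). Cyp2c66 and Cyp4v3 encode cytochrome P450 enzymes and Gsta4 a glutathione S-transferase. At 18 h Cyp2c66 had a log2 fold change of -3.31 ± 0.49 (adjusted p 0.00365 by edgeR). Those of Cyp4v3 and Gsta4 were -1.59 ± 0.29 (0.0114) and -1.44 ± 0.26 (0.00546). Gm47171 had -1.18 ± 0.31 (0.0385), and Pigl, which was not called, had -0.67 ± 0.20 (0.0615). All were picked because they tracked Cd36 over the same libraries. Their lower values at 18 h follow from that choice, and their adjusted p-values add no separate support. For the mean of the 10 standardised genes, the closest were Scp2 (r = 0.989), Tcn2 (0.987), Igsf9 (0.985), Dhrs1 (0.981) and Dock8 (0.977), none of which was called by edgeR in any comparison, with log2 fold changes at 72 h against controls from -0.48 to -0.77. Scp2 encodes a sterol and lipid carrier protein and Tcn2 the vitamin B12 carrier transcobalamin. The genes closest to the mean were also picked by likeness, so the direction of their changes follows from that choice.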

How the data were processed

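The authors aligned reads with HISAT2, counted them per gene with featureCounts (Subread) and deposited raw counts. They also deposited a normalised signal per gene, here called the normalised count, which equals the count divided by 1 factor per library, and the processing notes name DESeq2 1.42.0. The build was given as GRCm38 in the notes and as GRCm39 in the study's methods. Among neighbouring gene pairs whose order differs between the builds, 894 followed GRCm38 and 1 GRCm39, so positions were taken from RefSeq GRCm38.p6. The annotation release and strand setting were not given in the sources used here. Exons of Scarb1, Fabp2, Dgat1, Mttp, Apob and Apoa4 overlap genes on the other strand. The library kit kept strand, but whether counting used it is not known, so these genes' counts may include reads of the other gene. Of 29288 identifiers 28480 matched GENCODE vM39, from which symbols and exon lengths were taken.

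Counts of all 9 libraries entered 1 robust quasi-likelihood fit in edgeR 4.0.16 (R 4.3.3), after filterByExpr (18933 genes) and scaling by the trimmed mean of M values. A gene was called at an adjusted p under 0.05, with the Benjamini-Hochberg adjustment run across the whole table. SEs came from the F statistic and 95% intervals are ± 1.96 SE. Each library was 1 mouse, so p-values measure the spread between mice, and replicates of a group differed by more than counting noise. A floor of 3 counts was 0.0917 to 0.338 CPM per library and covers counting error only, as reads carried no molecular identifiers. The 10 genes and the lists were chosen with earlier results of these data known. Named genes were the 10, the called genes of the lists (at most 5 per list and comparison) and the 5 most alike by Pearson's r on log2(normalised count + 1). Alternatives were scaling by relative log expression, DESeq2 1.42.0, limma 3.58.1, no filter, the 2 groups compared alone, a replicate block, no robust estimation, a fold over 1.2, each library left out, and the enterocyte covariate. The fit was tested on simulated counts.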

Additional observations from a re-analysis of the deposited data

Results flagged for a closer look

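For 2 of the 10 genes the 2 αGal groups differed, by the direct test of 72h-αGal against 18h-αGal mice. Since controls were taken at 18 h alone, the lipid and the later sampling cannot be told apart here. Cd36 was higher at 72 h than at 18 h, by 1.69 ± 0.44 on the log2 scale (adjusted p 0.0253 by edgeR), with all 3 72h-αGal libraries above all 3 18h-αGal libraries. Scarb1 was lower at the later time (log2 fold change -0.89 ± 0.26, adjusted p 0.0433 by edgeR), and 1 of the 72h-αGal libraries lay within the 18h-αGal range. The call of Cd36 was kept in 15 of 19 alternatives and that of Scarb1 in 10.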

How the results depend on the processing

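The call of Cd36 at 18 h was kept in all 19 alternatives, with log2 fold changes of -2.95 to -2.16 and adjusted p-values from 4.84e-06 to 0.0384 by edgeR, DESeq2 or limma, and its call from 18 h to 72 h in 15. In all, 215 of the 276 checks of counts and ratios, and 509 of the 570 checks of the log2 fold changes of the 10 genes, kept their direction and their side of the threshold. Where a result moved, the cause was not tested.

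Of all genes, 5 were called at 72 h against controls, which became 30 in DESeq2, 13 with no filter, 3 without robust estimation, 1 in the replicate block, 1 for a fold over 1.2 and 30 with the covariate without control replicate 3. With only the 2 groups compared, 593 genes (against 1128) were called at 18 h, and from 18 h to 72 h 4 of the 10 genes and 20 pathway genes. The share of all genes called from 18 h to 72 h in that setting is not given here, so these counts have no background beside them. A fold over 1.2 left 502 genes and 3 pathway genes at 18 h, and 948 genes (against 1936), 1 of the 10 and 4 pathway genes from 18 h to 72 h. The covariate, chosen after the values had been seen, gave 2602 genes, 4 of the 10 and 17 pathway genes at 18 h, or 3 and 13 without control replicate 3, and 1190 genes from 18 h to 72 h without that library. Leaving out each library in turn gave 432 to 1556 genes and 1 to 9 pathway genes at 18 h, 0 to 20 genes at 72 h against controls, and 831 to 2593 genes, 4 to 22 pathway genes and 0 to 3 of the 10 from 18 h to 72 h.

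The deviations of same-numbered libraries from their group means had correlations of -0.15 to 0.115, against -0.1 to 0.135 for differently numbered libraries. Between controls and 18h-αGal mice the same-numbered values were 0.024, 0.061 and 0.115. With 3 libraries per group these values cannot settle whether the numbers paired the mice. With the replicate number as a block, 1 of the 10 genes was called from 18 h to 72 h, and the share of all genes called with that block is not given here.

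Values close to 0 turned in sign. At 18 h the log2 fold change of Dgat2 was -0.0003 with relative log expression scaling, -0.0011 in DESeq2 and -0.0513 with the covariate, or -0.1688 without control replicate 3, that of Scarb1 was 0.0056 with no filter, and that of Dgat1 was -0.0074 with the covariate. With the covariate, Fabp1 and Dgat1 had 0.2022 and 0.1808 at 72 h against controls (0.2014 and 0.1895 without control replicate 3). From 18 h to 72 h it gave 0.5108 for Fabp1, 0.4173 for Fabp2, 0.1882 for Dgat1, 0.4329 for Apob, 0.2236 for Apoa1 and 0.8596 for Apoa4, and 0.5656, 0.5367, 0.1589, 0.2427, 0.153 and 1.0689 without control replicate 3.

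With each library left out in turn, the log2 fold changes at 18 h ran from -0.1968 to 0.2183 for Scarb1, -0.6431 to 0.2931 for Fabp1, -0.1498 to 0.3276 for Dgat1, -0.193 to 0.1894 for Dgat2, -0.1895 to 0.4324 for Mttp, -0.7933 to 0.0969 for Apob and -0.7997 to 0.4901 for Apoa1. From 18 h to 72 h they ran from -0.5724 to 0.0034 for Fabp2 and -0.6664 to 0.2112 for Apoa4. The changes in log2 ratio at 72 h against controls ran from -0.163 to 0.415 for Cd36 to Scarb1, -0.173 to 0.267 for Fabp1 to Fabp2, -0.093 to 0.154 for Mttp to Apob and -0.018 to 0.458 for Apoa4 to Apoa1. That of Dgat1 to Dgat2 at 18 h ran from -0.066 to 0.123, and that of Fabp1 to Fabp2 from 18 h to 72 h from -0.435 to 0.006. Cd36 rested on 36 to 50 reads per 18h-αGal library, and over all genes replicates of a group differed by 13.1 to 42 times the chi-square per degree of freedom of counting noise.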
